A study of Mus musculus with 4 samples.

Results

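The genes described here are Cebpb, Rac1, Dapk3, Snx20, Tmed7, Abhd17b, Alyref, Grsf1, Arih1 and Tnks2, 10 of the 32285 genes counted in single-cell RNA sequencing libraries of mouse regulatory T (Treg) cells. They were chosen by these same counts, because their level in the neonatal spleen library was at least 2-fold below that in each of the other 3 libraries, so their low level there is a description and was not tested. Of the 5476 genes that reached 25 CPM (UMIs, or molecule counts, per 1000000) in their highest library, 34 met that 2-fold limit in neonatal spleen (0.621%). All 10 genes reached that floor and are among the 34, and the other 24 were not on the list.

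The cells were CD4+ T cells carrying the Foxp3GFP reporter, enriched on anti-CD4 beads and then sorted for GFP, so the sort itself used Foxp3, the transcription factor by which Treg cells are known. There was 1 library for each of 4 groups: liver and spleen of 12-day (neonatal) mice, and liver and spleen of 7-week mice, whose stage label reads "aged". The series describes its 12-day mice as Foxp3GFP-Cre animals with a loxP-stop-loxP YFP reporter at Rosa26. The labels used here do not give that genotype for the 7-week mice, and give neither the number of mice nor whether animals were pooled. With 1 library in a group there is no replicate, no test and no estimate of the spread between animals, and each group cannot be told apart from its library. The intervals below are 95% intervals that cover counting error only.

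After filtering, the neonatal libraries held 5363 liver and 5681 spleen cells and the 7-week libraries 2375 liver and 5682 spleen cells, with between 7116505 and 30128056 unique molecular identifiers (UMIs) each. Where 4 values are given in a row below, they are those of liver and then spleen in neonatal mice, followed by liver and then spleen in 7-week mice. The median cell held 4407 UMIs in neonatal liver and 4518 in neonatal spleen, against 2649 and 2905 in the 7-week libraries. Foxp3 stood at 409 to 458 CPM and Cd3e, a T cell receptor subunit, at 1215 to 1455 CPM in all 4 libraries. Other Treg and T cell markers were less even. Ctla4 stood at 517, 296, 373 and 307 CPM, Tnfrsf18 at 600, 481, 342 and 383 CPM, and Il2ra at 133, 192, 203 and 244 CPM. Ikzf2 stood at 486, 427, 399 and 477 CPM, Cd4 at 139, 143, 199 and 183 CPM, and Trac at 260, 194, 188 and 218 CPM. Haemoglobin RNA set neonatal spleen apart from the rest, as haemoglobin genes made up 0.0288% of its UMIs and at most 0.000491% in the other libraries, and Hbb-bs stood at 197 CPM against 0.14 to 3.31 CPM. Without the cells that held a haemoglobin UMI, all 10 genes were at least 2-fold lower in neonatal spleen, an alternative added after the data were seen. It kept 95.2% of the neonatal spleen cells, by which the genes were chosen, so the values could change little. Whether haemoglobin RNA plays a part in the gap was not tested. Between 23 and 91 cell barcodes were shared by each pair of libraries.

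The 10 genes belong to no single pathway. Cebpb encodes C/EBPβ, a basic leucine zipper transcription factor known for its part in inflammatory and myeloid gene expression. Rac1 is a small GTPase that drives actin assembly through the WAVE and Arp2/3 complexes, Dapk3 a kinase of the death-associated family that acts on myosin light chain, and Snx20 a sorting nexin that binds PSGL-1, the selectin ligand of leukocytes. Tmed7 is a p24 cargo receptor of the early secretory pathway, and Abhd17b a hydrolase that removes palmitate from proteins. Alyref couples mRNA to its nuclear export receptor, and Grsf1 binds G-rich RNA in mitochondrial RNA granules. Arih1 is a RING-between-RING ubiquitin ligase that works with cullin ligases, and Tnks2 is a tankyrase, a poly-ADP-ribosyltransferase that marks proteins such as axin for turnover.

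The genes are spread over 8 chromosomes. On GRCm38, Cebpb lies at chr2:167688915-167690418, Rac1 at chr5:143503634-143528036, Dapk3 at chr10:81183005-81193197, Snx20 at chr8:88626563-88636128, Abhd17b at chr19:21653185-21685637, Alyref at chr11:120592121-120598365, Grsf1 at chr5:88659448-88676171, Arih1 at chr9:59388258-59486618 and Tnks2 at chr19:36834232-36893477. All are annotated as protein-coding.

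Promoters are shown because a set of genes chosen for a low level in the same library invites a look at the sequence upstream of them. Windows of 3 genes that differ in it are printed. Each is the 250 bases before the annotated start, from RefSeq on GRCm38.p6, written 5′ to 3′ along the gene's strand, and capitals mark matches to the GC box GGGCGG or, on the other strand, CCGCCC. The windows are chr2:167688665-167688914 on the plus strand for Cebpb, chr5:88676172-88676421 on the minus strand for Grsf1 (the first of its annotated starts) and chr19:36833982-36834231 on the plus strand for Tnks2.
Cebpb: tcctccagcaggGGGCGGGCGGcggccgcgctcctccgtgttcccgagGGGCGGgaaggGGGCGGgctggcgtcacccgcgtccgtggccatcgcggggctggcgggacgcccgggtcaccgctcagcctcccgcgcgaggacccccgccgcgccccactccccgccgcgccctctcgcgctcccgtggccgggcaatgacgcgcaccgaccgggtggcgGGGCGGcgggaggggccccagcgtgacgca
Grsf1: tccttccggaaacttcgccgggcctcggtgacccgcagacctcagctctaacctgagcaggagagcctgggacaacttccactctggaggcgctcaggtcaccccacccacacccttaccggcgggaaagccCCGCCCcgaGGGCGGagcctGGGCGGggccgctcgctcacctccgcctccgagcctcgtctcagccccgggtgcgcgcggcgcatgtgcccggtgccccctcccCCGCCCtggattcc
Tnks2: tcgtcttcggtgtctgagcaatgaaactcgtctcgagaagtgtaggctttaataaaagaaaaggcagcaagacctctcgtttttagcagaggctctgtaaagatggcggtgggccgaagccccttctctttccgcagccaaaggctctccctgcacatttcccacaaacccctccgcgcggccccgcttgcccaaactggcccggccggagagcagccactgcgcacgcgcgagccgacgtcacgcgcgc
The Cebpb window held 5 matches at a GC share of 81.6%, the Grsf1 window 4 matches at 72.0%, and the Tnks2 window none at 59.6%. The window of the other annotated Grsf1 start, not printed, held 0 matches at 78.0%. A match is a description and not a site, and the absence of one says only that these letters are not in the window. The table of promoters gave 7 of the 10 genes (70%), and 6 of those 7 held a GC box, as did 65.7% of 4368 measured genes and 32.7% of all 32851 promoters. The share of genes with a sequence is too low for a check of GC content over the list of promoters, so that check is void.

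Cebpb had the widest gap of the 10, a gap being the fold by which the nearest other library lay above neonatal spleen. In neonatal mice its level was 17.7 CPM in liver (514 UMIs) and 0.531 CPM in spleen (16 UMIs), and in 7-week mice 32.9 CPM in liver (234 UMIs) and 7.21 CPM in spleen (135 UMIs). Neonatal spleen lay below every other library, and the nearest, 7-week spleen, was 13.6-fold higher (95% interval 8.06 to 24.4). The 16 UMIs lay in 16 cells with 1 UMI each, whereas the 514 UMIs of neonatal liver lay in 450 cells. The gene overlaps Tmem189 on the opposite strand, which stood at 18.9, 17.0, 15.6 and 13.7 CPM, so the overlapping gene did not share the gap. Daglb, which overlaps Rac1 on the opposite strand, stood at 11.4, 12.7, 10.1 and 10.3 CPM, and Ticam2, which overlaps Tmed7 on the same strand, at 0.621, 0.664, 0.843 and 0.907 CPM.

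Rac1 and Dapk3 act on the actomyosin cytoskeleton. Rac1 stood at 207 CPM in liver and 88.2 CPM in spleen of neonatal mice, and at 414 CPM and 367 CPM in those of 7-week mice. Neonatal liver, the nearest library, was 2.34-fold above neonatal spleen (2.24 to 2.46), and both 7-week libraries were above neonatal liver as well. Dapk3 stood at 68.1, 13.5, 47.5 and 40.3 CPM in the same order of libraries. Its highest level was in the other neonatal library, and 7-week spleen, the nearest, was 2.98-fold above neonatal spleen (2.64 to 3.37).

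Snx20, Tmed7 and Abhd17b serve membrane traffic and membrane anchoring. Snx20 stood at 127 CPM (3687 UMIs) in liver and 26.2 CPM (789 UMIs) in spleen of neonatal mice, and at 183 CPM (1300 UMIs) and 132 CPM (2467 UMIs) in those of 7-week mice. The nearest library, neonatal liver, was 4.86-fold higher (4.49 to 5.25), the second widest gap of the 10 and one with a narrow interval. Tmed7 stood at 33.2, 7.50, 44.8 and 30.2 CPM in the order of libraries above, with 7-week spleen 4.03-fold above neonatal spleen (3.45 to 4.72). Abhd17b stood at 26.6, 7.00, 21.2 and 22.2 CPM, with 7-week liver 3.03-fold above neonatal spleen (2.44 to 3.75). In these 3 genes the other libraries lay within 1.48-fold of each other, and neonatal spleen lay apart from them.

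Alyref and Grsf1 handle RNA in the nucleus and in mitochondria. Alyref stood at 29.8, 8.60, 20.9 and 24.4 CPM. The nearest library, 7-week liver, was 2.44-fold above neonatal spleen (1.98 to 2.99). Grsf1 stood at 32.6, 8.96, 30.2 and 30.1 CPM in the same order, and 7-week spleen was 3.35-fold above neonatal spleen (2.90 to 3.89). The other 3 libraries lay within 1.08-fold of each other for Grsf1, the narrowest range of the 10.

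Arih1 and Tnks2, the enzymes of ubiquitin and ADP-ribose transfer, had the smallest gaps. Arih1 stood at 24.8, 12.0, 28.2 and 27.7 CPM. Neonatal liver was 2.06-fold above neonatal spleen, with an interval of 1.82 to 2.35 that reaches below the 2-fold limit. Tnks2 stood at 34.8, 16.6, 50.7 and 49.96 CPM, and neonatal liver was 2.10-fold above neonatal spleen (1.88 to 2.34). Just inside the limit among all genes were Dusp1 at 2.06-fold and Bmp7 at 2.06-fold, and just outside it were Gbp5 at 1.97-fold and Slc4a7 at 1.95-fold.

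**Figure D1:**
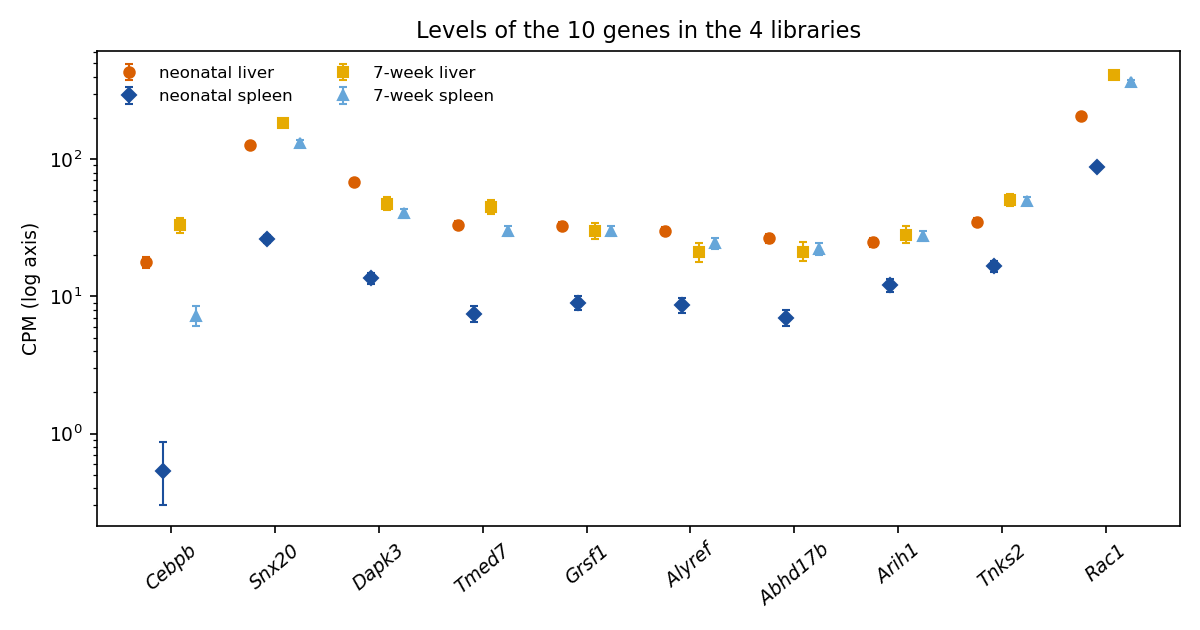
Level of each of the 10 genes (CPM, log axis) in the 4 libraries, with bars for the 95% Poisson interval of the summed UMIs, which covers counting error only. The neonatal spleen diamond is the lowest point for each gene, from 0.531 CPM for Cebpb to 88.2 CPM for Rac1.

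The UMIs of the other 9 genes in neonatal spleen were spread over many cells, from 200 cells for Abhd17b to 1968 cells for Rac1. The 10 cells with the most UMIs of a gene held 1.99% of the neonatal spleen UMIs of Rac1 and 9.48% of those of Abhd17b. Over all 10 genes together the summed level was 601, 189, 874 and 730 CPM. Of it Rac1 made up 207, 88.2, 414 and 367 CPM, and Snx20 127, 26.2, 183 and 132 CPM.

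The same rule applied to each library in turn gives the background for such a list. It found 14 genes low only in neonatal liver (0.256%), 15 low only in 7-week liver (0.274%) and 33 low only in 7-week spleen (0.603%), beside the 34 of neonatal spleen. In the other direction it found 64 genes at least 2-fold above each other library in neonatal liver (1.17%) and 9 in neonatal spleen (0.164%). At 7 weeks it found 27 in liver (0.493%) and 2 in spleen (0.0365%). At a floor of 50 CPM the rule found 13 genes in neonatal and 21 in 7-week spleen. Against single libraries, neonatal spleen was at least 2-fold below neonatal liver in 2.59% of genes, below 7-week liver in 6.84% and below 7-week spleen in 2.51%. For the 10 genes all 3 hold by the choice, and nothing is read from that count.

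**Figure D2:**
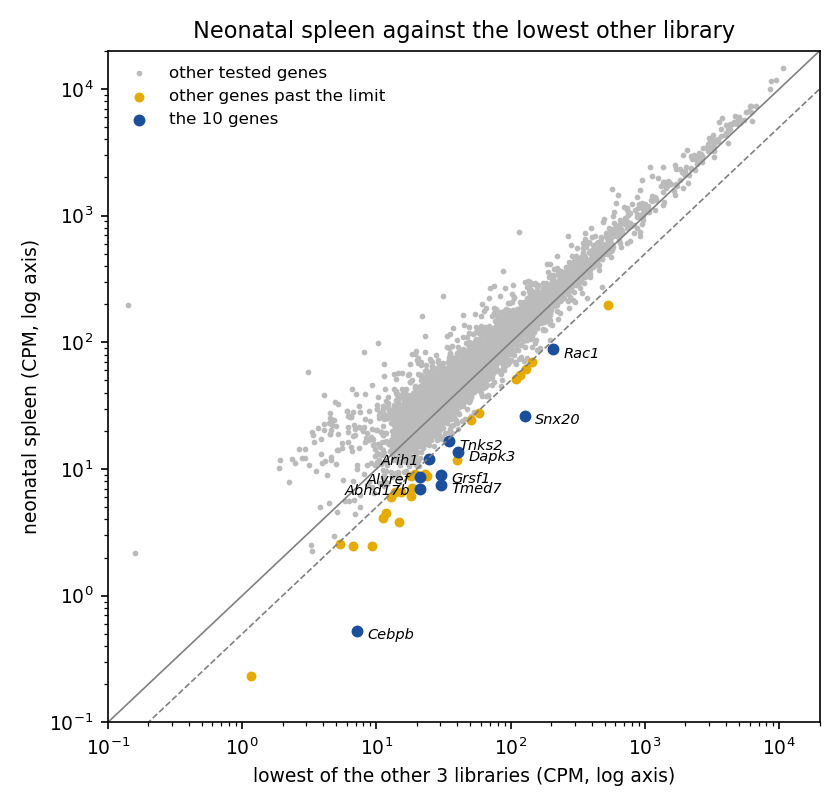
Each tested gene's level in neonatal spleen against its lowest level in the other 3 libraries (both CPM, log axes), with the solid line at equal levels and the dashed line at 2-fold (genes at 0 on either axis are not drawn). The 10 genes and the 24 other genes past the limit lie below the dashed line, with Cebpb at 0.531 CPM farthest from it among the 10.

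The other 3 libraries, which the rule did not rank among themselves, were also compared with each other. The highest of them was at least 2-fold above the lowest for 2 of the 10 genes, against 12.7% of all 5385 genes compared this way, and nothing particular to the 10 is read from so small a count. Those were Cebpb, at 4.56-fold between 7-week liver and 7-week spleen (3.68 to 5.68), and Rac1, at 2.004-fold between 7-week liver and neonatal liver (1.92 to 2.10). Rac1 lies at the limit, and it fell short of it with median-of-ratios scaling, without the cells that held a hepatocyte marker UMI, with cells thinned to 1000 UMIs and with the mean of each cell's own CPM, each of which left 1 gene.

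For Grsf1 and Arih1 no interval between any pair of these 3 libraries excluded 1, and their highest library was 1.08-fold and 1.14-fold above the lowest. Over the 30 pairs of libraries and genes, 19 intervals excluded 1. The share over all genes was not computed for this count, so nothing particular to these genes is read from it. Cebpb was higher in liver than in spleen at both ages, at 33.4-fold in neonatal mice (20.4 to 58.8), which the rule used, and at 4.56-fold in 7-week mice, which it did not. Hepatocyte markers were also higher in the livers. Of 7 such genes (Alb, Apoa1, Apoa2, Ttr, Serpina1a, Trf and Ahsg), all 7 had a UMI in each liver library and 2 (Apoa2 and Trf) in each spleen library, and their summed level was 12.9, 2.02, 20.1 and 1.39 CPM. Without the cells that held a UMI of these genes, an alternative added after the data were seen, Cebpb was 34.1-fold higher in liver in neonatal mice (20.5 to 61.4) and 4.56-fold in 7-week mice (3.66 to 5.71). That kept 95.6% of neonatal and 96.4% of 7-week liver cells, so the values could change little. Whether hepatocyte RNA plays a part was not tested. Tnks2 and Rac1 were higher in 7-week liver than in neonatal liver, by 1.46-fold (1.29 to 1.65) and 2.004-fold.

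The next question was whether the gap was seen within cells of like state, since the libraries differed in their mix of Ccr7-, Gzmb- and Mki67-expressing cells. Cells with at least 1 UMI of Ccr7 (a chemokine receptor of resting, lymph node-homing T cells), of Gzmb (granzyme B, of activated cells) or of Mki67 (of dividing cells) were compared separately. They numbered 1290, 2380, 829 and 1971 for Ccr7, 2141, 587, 160 and 122 for Gzmb, and 911, 491, 146 and 216 for Mki67. These cells are part of the same libraries, so their values are not independent of those that chose the genes, and a cell may fall in more than 1 set.

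Among Ccr7-positive cells all 10 genes were lowest in neonatal spleen and at least 2-fold below each other library, against 0.579% of the 5353 genes measured in these cells. Cebpb had 47, 2, 50 and 33 UMIs, or 0.146 CPM in neonatal spleen, and 7-week spleen was 30.7-fold higher (7.85 to 264). Snx20 stood at 99.1, 23.96, 147 and 128 CPM, with a smallest gap of 4.14-fold (3.62 to 4.73). The smallest gap in these cells was that of Arih1, at 2.26-fold (1.82 to 2.82).

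Among Gzmb-positive cells all 10 genes were again lowest in neonatal spleen, and 9 were at least 2-fold below each other library, against 0.37% of 5679 genes. The exception was Alyref, at 30.4, 10.7, 24.2 and 19.0 CPM and 1.78-fold (0.794 to 3.62). Tmed7 had the widest gap, at 33.7, 6.69, 35.6 and 36.2 CPM and 5.05-fold (3.37 to 7.88). Cebpb held 9 UMIs in neonatal spleen (2.41 CPM) and 6 in 7-week spleen (11.4 CPM), a gap of 4.75-fold with an interval of 1.39 to 14.9.

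Among Mki67-positive cells the count was also 10 lowest and 9 at least 2-fold, against 0.523% of 5734 genes. The exception was again Alyref, at 53.7, 20.1, 26.6 and 59.5 CPM and 1.32-fold (0.764 to 2.17). Alyref was higher in Mki67-positive cells than in all cells in each of the 4 libraries. Arih1 and Abhd17b stood near the limit in these cells, at 2.01-fold (1.49 to 2.76) and 2.04-fold (0.854 to 4.39), and Snx20 was at 4.07-fold (3.39 to 4.93).

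Cells with none of the 3 markers gave the same order, with 10 genes lowest and 9 at least 2-fold. Arih1 was the exception there, at 1.89-fold. Of the 30 gene and cell set pairs over the 3 markers, 28 were at least 2-fold, and 13 were when cells were first thinned to 1000 UMIs, namely 7 in Ccr7-positive, 6 in Gzmb-positive and 0 in Mki67-positive cells. In thinned Mki67-positive cells 5 genes were lowest in neonatal spleen, with a widest gap of 1.85-fold. In cells positive for Mki67 but neither of the other markers, 9 genes were lowest and 6 at least 2-fold, without thinning. The share over all genes was computed neither in these cells, nor in thinned marker-positive cells, nor in cells with none of the markers. Thinning left 77 Gzmb-positive cells in 7-week liver and 65 in 7-week spleen, and 8 of the 10 genes then had 3 or fewer UMIs in at least 1 library, so the thinned counts for Gzmb and Mki67 are near the limit of detection.

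**Figure D3:**
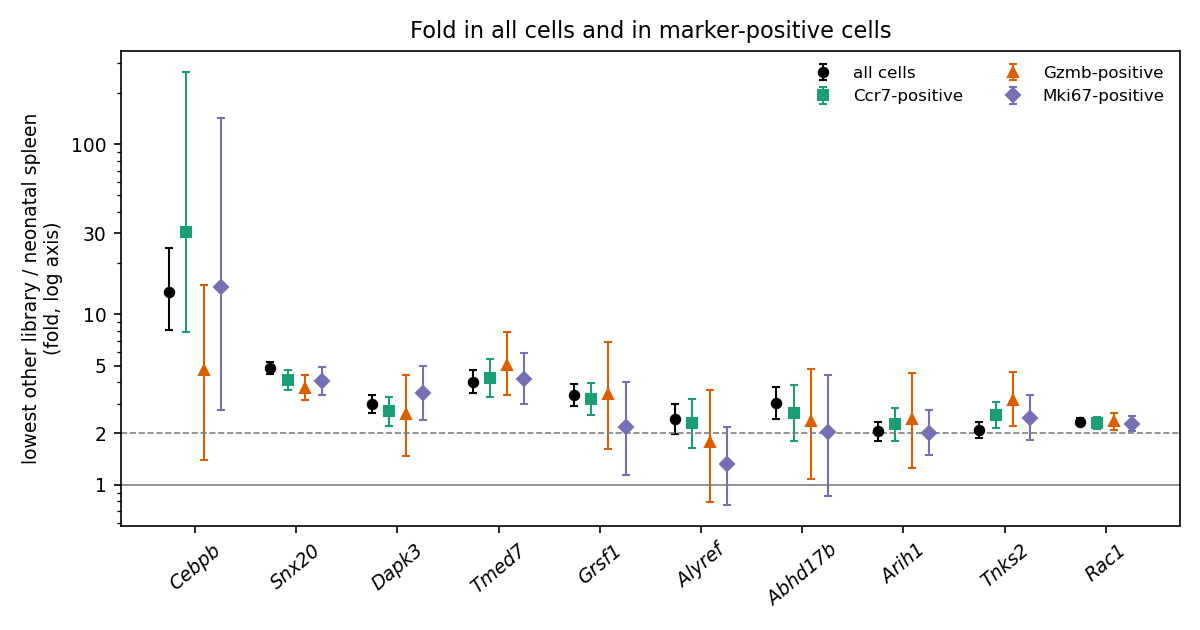
Fold of the lowest other library over neonatal spleen (log axis) for each gene in all cells and in Ccr7-, Gzmb- and Mki67-positive cells, with 95% intervals for counting error, a solid line at 1 and a dashed line at 2. All points lie above 1, and only Alyref in Gzmb-positive (1.78) and Mki67-positive cells (1.32) lies below 2.

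Clusters made from all cells without the 10 genes gave a second division by cell state. Only 1 cluster held at least 50 cells of every library, and in it all 10 genes were lowest in neonatal spleen and 7 were at least 2-fold below each other library. With at least 20 cells, a limit added after the data were seen, 11 clusters qualified. In those, 94 of 110 gene and cluster pairs were lowest in neonatal spleen and 60 were at least 2-fold, of 103 in which a fold could be computed. Some clusters held few cells of a library, down to 22 of 7-week liver. The share over all genes was computed for neither cluster limit, and these cells are part of those that chose the genes. In 1 cluster of few cells, led by Fosb among other genes, 5 genes were lowest and 0 at least 2-fold. The summed level of the 10 genes was lowest in neonatal spleen in all 11 clusters, at 179 to 345 CPM, while the other libraries' clusters ranged from 525 to 1041 CPM. Over all neonatal spleen cells Rac1 and Snx20 held 88.2 and 26.2 of 189 CPM, so the sum mostly follows these genes.

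The low level was also seen in barcodes left out of the counts above, which were not free of Treg cell RNA. Those removed as other lineages (dendritic, B cell and macrophage clusters) numbered 48, 192, 2 and 52 in the order of libraries above. In neonatal spleen they still carried Cd3e at 1165 CPM and Foxp3 at 381 CPM, against 409 CPM of Foxp3 in the cells kept. Barcodes of neonatal spleen that failed the cell filter carried Cd3e at 1174 CPM and Foxp3 at 484 CPM. Among those removed as other lineages, 6 of the 10 genes were lowest in neonatal spleen. All 10 were lower there than in 7-week spleen, 9 of them by at least 2-fold, and 9 were lower than in neonatal liver. Several counts in neonatal and 7-week spleen were small, at 0 and 2 UMIs for Cebpb and 1 and 6 for Grsf1. Abhd17b had 1 and 4 UMIs and Tmed7 6 and 5. The share over all genes in the barcodes left out was not computed. Rac1 had 63 UMIs (102 CPM) in neonatal spleen and 59 UMIs (345 CPM) in 7-week spleen. In barcodes that failed the cell filter all 10 genes were lowest in neonatal spleen, 5 of them at least 2-fold below 7-week spleen. Alyref and Tmed7 had 1 UMI each in 7-week spleen, and stood at 10.4 CPM in neonatal and 10.8 CPM in 7-week spleen for Alyref and 8.29 and 10.8 CPM for Tmed7. Cebpb had 0 UMIs in these barcodes of neonatal spleen, with a 95% upper limit of 3.82 CPM, against 24 UMIs (16.8 CPM) in neonatal liver. Whether a property of the library or its RNA plays a part in the gap was not tested.

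Paralogs share sequence and function with some of the 10 genes. Rac2, the Rac GTPase of blood cells, stood at 2249, 2151, 1937 and 1960 CPM, so neonatal spleen lay between the other libraries. Abhd17a stood at 51.1, 50.3, 23.2 and 21.6 CPM, and Alyref2 at 14.9, 15.4, 8.43 and 8.49 CPM. Both paralogs were thus higher in both neonatal libraries, in contrast to Abhd17b and Alyref. Of 9 paralogs that reached 10 CPM, 0 were at least 2-fold lower in neonatal spleen, a count too small to read against the 0.596% of all genes at that floor, and the widest gap was that of Cebpg, the C/EBPγ gene, at 1.21-fold. Cebpd, below that floor, had 23, 5, 9 and 13 UMIs and a gap of 4.18-fold (1.40 to 14.98).

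The partners of these genes were taken from lists by pathway. The 11 lists of pathway partners held 155 genes that reached 10 CPM, and 0 of them were at least 2-fold below each other library in neonatal spleen, against 0.596% of all 8050 genes at that floor, and nothing particular to the partners is read from a count so near the background. Their median gap was 0.88-fold, beside 0.84-fold over all genes, where a value under 1 means that some other library was lower. Of the 155, 45 were lowest in neonatal spleen (29.0%, against 23.3% of all genes). Among WAVE and Arp2/3 subunits 4 of 14 were lowest there, among mRNA export factors 4 of 17, and among tankyrase partners and PARPs 8 of 14. Usp25, a deubiquitinase and tankyrase partner, had the widest gap at 37.1, 22.3, 56.5 and 43.0 CPM (1.66-fold), and Selplg, which encodes the PSGL-1 that SNX20 binds, stood at 657, 539, 697 and 472 CPM.

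Genes next to the 10 on the chromosome were compared in the same way. Of the 20 nearest measured genes, 0 were at least 2-fold lower in neonatal spleen, a count too small to read against the 0.621% of all genes, and their median gap was 0.87-fold, beside 0.84-fold over all genes. Anapc11, 56 bases from Alyref, stood at 134, 140, 110 and 132 CPM, and Eif1a, 166 bases from Tmed7, at 52.9, 46.6, 50.2 and 46.8 CPM. The widest gaps were those of Dck beside Grsf1, at 1.83-fold, and Fem1c beside Tmed7, at 1.73-fold.

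**Figure D4:**
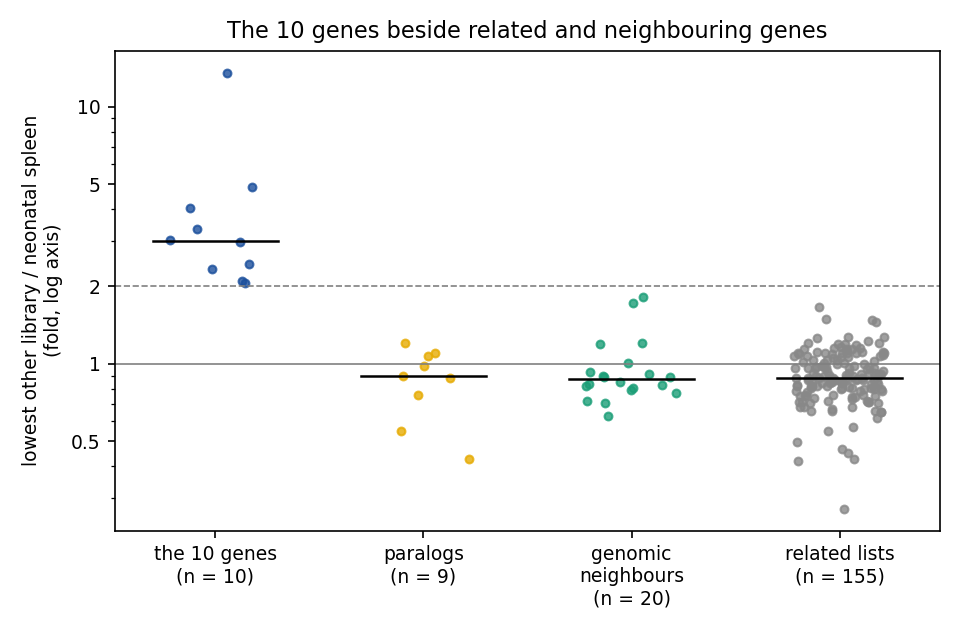
Fold of the lowest other library over neonatal spleen (log axis) for the 10 genes, 9 paralogs, 20 genomic neighbours and 155 genes of related lists, 1 point a gene, with a bar at each median and lines at 1 (solid) and 2 (dashed). The 10 genes were chosen for lying above 2, and no gene of the other sets lies above 1.83.

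The genes whose pattern was most like that of the 10 were taken as the 10 others with the widest gap to the nearest of the other 3 libraries. Gbp2b, an interferon-induced GTPase, stood at 1.17, 0.232, 27.96 and 14.3 CPM, a gap of 5.05-fold (2.20 to 13.5). Plac8 followed at 24.6, 3.82, 38.1 and 14.6 CPM and 3.83-fold. Ly6a, the Sca-1 antigen, was the most highly counted of them in neonatal spleen, with 5904 UMIs, at 728, 196, 874 and 527 CPM and 2.69-fold (2.60 to 2.78). The rest of the first 10 were Ctla2a, Serpina3g, Slain1, Gbp10, Mfsd14b, Ifit3 and Casp1, at 3.74-fold down to 2.63-fold. The likeness is a description over 4 libraries and says nothing of shared function.

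The 5′ end of the transcript is where this kit reads, so its base composition was compared for all 10 genes. In the first 200 bases 3 of the 10 (Arih1, Tnks2 and Grsf1) lay in the 10% of measured genes with the highest GC share, and 7 lay above the median. In the first 500 bases, a window added after the data were seen, 5 did (Tnks2, Cebpb, Arih1, Grsf1 and Tmed7, at 69.2% to 77.4% GC) and 8 lay above the median. Snx20, with the second widest gap, lay below the median in both windows, at 54.5% and 55.8%, as did Abhd17b at 57.0% and 48.8%. Over all 34 genes low only in neonatal spleen, 5 lay in the top 10% and 8 in the bottom 10% by the first 200 bases, and 12 and 7 by the first 500. The part of base composition in the gap was not tested.

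**Figure D5:**
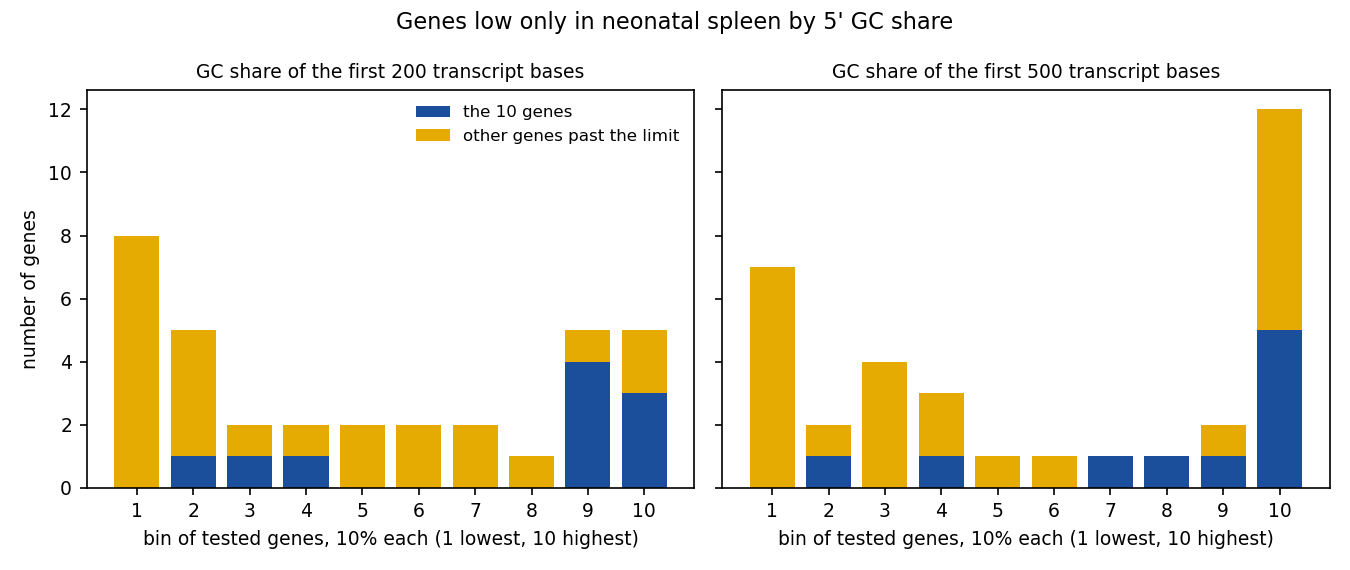
Number of genes low only in neonatal spleen in each of 10 bins of the measured genes by GC share of the first 200 (left) and first 500 (right) transcript bases, with the 10 genes in blue and the 24 others in yellow. In the highest bin there are 5 genes on the left, 3 of them blue, and 12 on the right, 5 of them blue.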

How the data were processed

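The authors deposited unnormalised UMI counts for each gene in each barcode, and the file headers name Cell Ranger 4.0.0. The build mm10 and Seurat 4.0.2 are named in the submitters' processing notes, and the release of the gene annotation is not stated there. Reads come from a 10x Genomics 5′ kit, per the labels' protocols.

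The cell filter asked for 500 or more detected genes and no more than 10% of UMIs from mitochondrial genes. Scrublet's own threshold marked 0, 0, 10 and 0 cells and had not worked, so the highest scores were removed at 0.8% per 1000 cells (257, 305, 47 and 290 cells, in the order used in the report). Cells were clustered in scanpy 1.11.5 without the 10 genes (2000 variable genes, 30 principal components, 15 neighbours, Leiden resolution 1.0). A cluster was removed where its 10 leading genes included 2 or more markers of another lineage.

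UMIs were summed over cells and divided by the total to give CPM. Levels have exact Poisson intervals and ratios exact conditional binomial intervals, and no test was made. A gene's gap is the lowest other library over neonatal spleen. Alternatives were other totals (edgeR 4.0.16 was used for TMM scaling only), cell filters, thinning to 1000 UMIs and other floors. The rule and the intervals were tested on simulated counts that held Poisson error only. These had no spread between cells, animals or libraries, so the run checks the code and says nothing of that spread. Positions and transcripts (the principal isoform, then the longest) come from GENCODE vM21 on GRCm38, which matched 32235 of 32285 features by identifier.

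The 10 genes and all lists were chosen with earlier results of these data known. The text names the 10 genes, the 10 other genes with the widest gaps (without unnamed and sex-linked genes and those of receptor segments, ribosomes, mitochondria and haemoglobin), those beside the 2-fold limit, and the paralogs and leading members of related lists. The counts of 1 of the related lists are not reported here on their own. Neighbouring and overlapping genes, and list members singled out for their gap, were named after their values were seen.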

Additional observations from a re-analysis of the deposited data

Results flagged for a closer look

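In 3 of the 10 genes age went opposite ways in the 2 tissues, with both counting intervals excluding 1. Of all 5476 genes tested, 95 (1.73%) went opposite ways in the same direction as these 3. For the 10 genes the direction in spleen was fixed by their choice. The choice also asked for neonatal liver at least 2-fold above neonatal spleen, which favours genes high in neonatal liver. Nothing particular to the 10 is therefore read from these counts. Of the 168 genes at least 2-fold lower in neonatal than in 7-week spleen with an interval that excludes 1, these 3 (1.79%) were the ones so placed. Dapk3 was 1.43-fold higher in neonatal than in 7-week liver (1.28 to 1.61), but 2.98-fold higher in 7-week than in neonatal spleen. Alyref was 1.42-fold higher in neonatal liver (1.19 to 1.70) and 2.84-fold higher in 7-week spleen (2.43 to 3.32). Abhd17b was 1.25-fold higher in neonatal liver (lower bound 1.05) and 3.16-fold higher in 7-week spleen (2.67 to 3.75). The difference between the tissues was not tested, as each group is 1 library. Depth per cell differed between the livers, with medians of 4407 (neonatal) and 2649 UMIs. With cells thinned to 1000 UMIs the neonatal over 7-week liver ratio of Alyref was 0.941, so its direction turned, and by the mean of each cell's own CPM it was 1.05. The same ratios were 1.36 and 1.49 for Dapk3 and 1.17 and 1.19 for Abhd17b, and the part of depth was not tested.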

How the results depend on the processing

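All 10 genes stayed lowest in neonatal spleen and at least 2-fold below each other library under 11 of 12 alternatives to the totals and the cells. With ribosomal protein, mitochondrial, haemoglobin and receptor segment genes left out of the totals 9 did, as Arih1 came to 1.98-fold. Over these alternatives Cebpb ranged from 10.9 to 21.8-fold and Snx20 from 4.58 to 5.19-fold. A floor of 50 CPM cut the 34 genes low only in neonatal spleen to 13, of which 4 were among the 10, since fewer genes are tested. Thinning cut the 28 pairs of genes and marker-positive cells past 2-fold to 13 (7, 6 and 0 for Ccr7, Gzmb and Mki67), and the smaller cluster limit moved 7 of 10 pairs to 60 of 110. The 2 genes that differed 2-fold among the other libraries became 1 under 4 alternatives, all of which were applied to that comparison after the data were seen, and the cause was not tested. By GC share 5 of the 7 genes with a promoter window lay in the top 10%, a check that is void, and 3 of 10 did by the first 200 transcript bases. Both the sequence and the number of genes differ between these counts. No paired analysis was possible because each group is 1 library and no test was made, and for the same reason no replicate could be left out. Counts under about 10 UMIs, as for Cebpb in marker-positive cells, limit the precision.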

Other observations

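Among the 24 other genes low only in neonatal spleen, Mcl1, a survival factor of the BCL2 family, was 2.11-fold lower and Tnfaip3, which encodes the A20 inhibitor of NF-κB signalling, 2.08-fold lower than in the nearest library. Both were named after their values were seen. By the first 500 transcript bases, 7 of the 24 lay in the top 10% of GC share (Slain1, Mcl1, Nudt4, Bmp7, Cmpk2, Mfsd14b and Dusp1) and 7 in the bottom 10% (Casp1, Iigp1, Ctla2a, Ly6a, Cybb, Ifit3 and Gm42031). Of the genes low only in neonatal liver, 7-week liver and 7-week spleen, 2 of 14, 0 of 15 and 2 of 33 lay in that top 10%. No test was made of these counts.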
